A study of Homo sapiens with 19 samples.

Results

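The lipid droplet proteins and triglyceride turnover enzymes were followed in human liver organoids through 10 genes, PLIN2, PLIN3, PLIN4, PLIN5, CIDEB, CIDEC, HILPDA, DGAT1, DGAT2 and PNPLA2. They were chosen by name, with earlier results of these data known, and matched by Ensembl identifier. All 10 were found among the 32703 identifiers present in every matrix. The organoids were grown from W01, an established wild-type human pluripotent stem cell line from WiCell, so every group shares 1 line and 1 genotype. Single cells from them were sequenced by a droplet method (10x Genomics 3′ chemistry, version 3) in 19 libraries. Organoids kept in ultra-low attachment (ULA) culture were taken without treatment, 3 libraries on day 21 and 2 on day 34. The organoids labelled OS, all from day 25, made up 7 groups with 2 libraries each. These were untreated, TGFB1 at 10 ng/ml, PA at 500 µM and OA at 500 µM, with a separate control group for each agent. TGFB1 and PA were given for 5 days after 20 days of culture, per the labels. The labels name OA in the titles and sample characteristics without a protocol, and spell out neither PA nor OA. Nothing in the labels says that replicates were separate cultures, so p-values measure the spread between these libraries, which may be technical.

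Neutral lipid is stored in droplets, whose surface is coated by perilipins such as PLIN2. DGAT1 and DGAT2 catalyse the last step of triglyceride synthesis, joining a fatty acid to diacylglycerol. CIDEB and CIDEC sit at contacts between droplets and let them enlarge, and in liver CIDEB also acts in the lipidation of very-low-density lipoprotein. PNPLA2 (adipose triglyceride lipase) opens triglyceride breakdown, and HILPDA, a hypoxia-inducible droplet protein, inhibits it. In hepatocytes PLIN2 protein is a standard sign of fat loading.

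RefSeq promoter windows (GRCh38.p14, 250 bases before to 50 after the start) were available for 7 of the 10 genes, in 9 windows. PLIN2 and PNPLA2 are shown because both rose with OA and each window held 1 match to a motif searched. The motifs were the E-box CACGTG, the nuclear receptor half-site AGGTCA, and 2 copies of AGGTCA in the same direction with 1 base of any kind between them, which contain the half-site. Both strands were read, and the capitals mark the matches. The 250 bases before each start are printed 5′ to 3′ on the gene's strand.

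PLIN2, minus strand, chr9:19127493-19127742: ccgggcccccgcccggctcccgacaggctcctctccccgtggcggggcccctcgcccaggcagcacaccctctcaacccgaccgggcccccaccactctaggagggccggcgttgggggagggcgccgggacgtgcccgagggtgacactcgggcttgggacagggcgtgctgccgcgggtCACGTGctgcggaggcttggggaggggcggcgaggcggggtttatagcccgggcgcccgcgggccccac

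PNPLA2, plus strand, chr11:818664-818913: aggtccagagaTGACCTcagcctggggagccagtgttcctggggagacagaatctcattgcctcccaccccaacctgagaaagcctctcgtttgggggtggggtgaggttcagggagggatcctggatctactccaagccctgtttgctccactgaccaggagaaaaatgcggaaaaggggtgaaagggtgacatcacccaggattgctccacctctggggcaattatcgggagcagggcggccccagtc

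The PLIN2 match ends 63 bases before the start and the PNPLA2 match, read on the opposite strand, 233 bases before it. CACGTG occurs in 7.26% of all 35116 windows and AGGTCA in 13.8%. The direct repeat occurs in 0.0228% of windows and in no window of these genes. The windows are a description of sequence. Both genes were picked in part because they rose with OA, and no link between a motif and that rise was tested.

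Across libraries, 120240 of 138053 deposited barcodes passed the filter of 500 detected genes and no more than 20% mitochondrial UMIs. Deposited libraries held 7476533 to 92522222 unique molecular identifiers (UMIs), with medians of 1310 to 14304 per kept cell. Pairs of libraries shared 1 to 32 cell barcodes, at most 0.58% of the smaller library. All 12 hepatocyte markers were detected in every group, though AHSG was too low to be tested in the whole-library comparisons. Their summed level was 9098 to 24380 CPM (counts scaled to a common library total) in OA and its control, 17330 to 23950 with PA and its control, and 100.1 to 884.5 in day 34 ULA organoids. Genes of the intestinal epithelium, 9 in all, were detected in every group too. All levels are CPM of UMIs summed over kept cells. Such sums cannot tell fewer cells of a type from less RNA per cell.

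With OA most of these genes changed. Of the 10 genes, 8 rose and 1 fell between OA and its control, both sampled in 2 libraries, where edgeR called 43.3% of 19361 genes at an adjusted p under 0.05 (21.7% higher and 21.6% lower). The median log2 fold change was 2.35 over the 10 genes and -0.08 over all genes tested. DGAT2, CIDEC and CIDEB had the largest fold changes of the 10, the perilipins changed unevenly, and HILPDA fell.

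**Figure D1:**
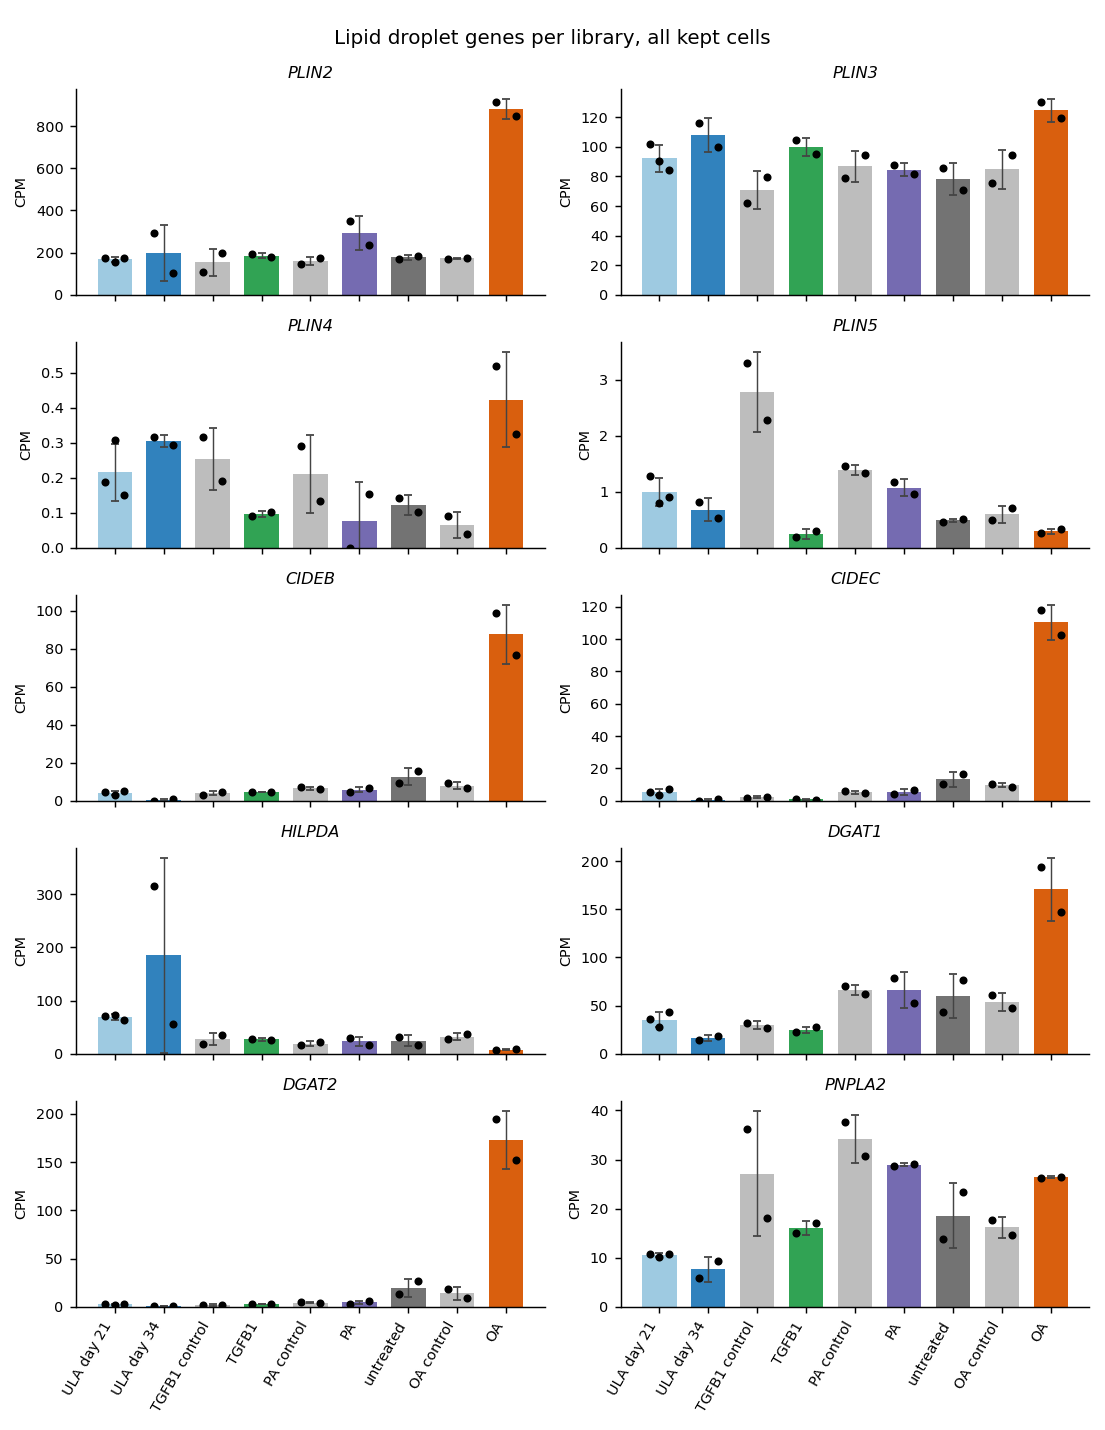
CPM of each gene in all kept cells, by group on the horizontal axis; points are libraries, bars are group means and whiskers are ± 1 SD (n = 2, or 3 for ULA day 21), with each panel on its own scale. With OA, PLIN2 stood at 918 and 849 CPM against 170 and 174 in its control, whereas HILPDA stood at 6.75 and 8.49 against 27.1 and 37.3.

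Among the enzymes, DGAT2 (chromosome 11, 75759512 to 75801535, plus strand) stood at 194 and 152 CPM with OA against 18.7 and 9.12 in the control. Both OA libraries lay far above both controls, a log2 fold change of 3.95 (edgeR SE 0.473, adjusted p 3.6e-05). DGAT1 (chromosome 8, 144314584 to 144326910, minus strand) stood at 194 and 147 CPM with OA against 60.6 and 47.1. Its groups did not overlap either, and the log2 fold change was 1.99 (edgeR SE 0.317, adjusted p 2.8e-04). DGAT1 overlaps HSF1 on the other strand, and whether counting used strand is not given in the sources used here. Whether reads of HSF1 entered the DGAT1 count was not checked. The lipase PNPLA2 (chromosome 11, 818914 to 825573, plus strand) stood at 26.2 and 26.5 CPM with OA against 17.7 and 14.6, a log2 fold change of 1.04 (edgeR SE 0.303, adjusted p 0.014). The PNPLA2 call was lost without OA control replicate 2 (log2 fold change 0.84) and without OA replicate 1 (1.03). It was also lost without composition scaling of the libraries (0.71), and its adjusted p ranged from 1.6e-04 to 0.125 over 11 alternatives.

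Transcripts of the 2 droplet contact proteins rose from low levels. CIDEC (chromosome 3, 9866711 to 9880255, minus strand) stood at 118 and 103 CPM with OA against 10.3 and 8.66. CIDEB (chromosome 14, 24305187 to 24311430, minus strand, overlapping NOP9 and LTB4R2 on the other strand) stood at 98.7 and 76.7 CPM against 9.16 and 6.77. OA libraries were above controls for both genes with no overlap. The log2 fold changes were 3.87 for CIDEC (edgeR SE 0.359, adjusted p 6.0e-06) and 3.79 for CIDEB (edgeR SE 0.347, adjusted p 5.4e-06). Under each of 11 alternatives both genes were still called.

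The 4 perilipins did not move as one. PLIN2 (chromosome 9, 19108375 to 19149290, minus strand) rose from 170 and 174 CPM to 918 and 849, a log2 fold change of 2.70 (edgeR SE 0.319, adjusted p 3.2e-05). PLIN3 (chromosome 19, 4838341 to 4867694, minus strand), which also binds nascent droplets from the cytosol, stood at 130 and 119 CPM with OA against 75.6 and 94.3. That is a smaller step between groups that again did not overlap, a log2 fold change of 0.90 (edgeR SE 0.202, adjusted p 0.0030). PLIN4 (chromosome 19, 4502192 to 4518486, minus strand, overlapping HDGFL2 on the other strand) rested on few molecules, with 28 and 17 UMIs with OA against 5 and 2. Its log2 fold change was 2.99 (edgeR SE 0.730, adjusted p 0.0052), but 2.46 and no longer called without OA control replicate 2 (adjusted p 5.7e-04 to 0.069 over 11 alternatives). PLIN5 (chromosome 19, 4522531 to 4535224, minus strand), a perilipin of oxidative tissues that tethers droplets to mitochondria, overlaps an unnamed protein-coding gene on the same strand, so its counts are uncertain where the 2 overlap. PLIN5 stood at 0.260 and 0.327 CPM with OA against 0.486 and 0.706. It did not pass the test in whole libraries (log2 fold change -0.67, edgeR adjusted p 0.173).

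HILPDA (chromosome 7, 128455849 to 128458418, plus strand) was the gene that fell. It stood at 6.75 and 8.49 CPM with OA against 27.1 and 37.3, and fell by 1.73 on the log2 scale (edgeR SE 0.362, adjusted p 0.0019). Of 13 tested hypoxia-inducible genes other than HILPDA, 3 rose and 1 fell with OA, shares near or below those of all genes. ANKRD37 fell by 1.91 on the log2 scale (edgeR adjusted p 6.9e-05), while VEGFA, which encodes an angiogenic factor, rose by 1.08 (edgeR adjusted p 0.0034) and BNIP3 by 1.03 (edgeR adjusted p 0.012).

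Cell make-up differed between the same libraries. COL-positive cells, those with a COL1A2 or COL3A1 UMI and no EPCAM UMI, were 1.56% ± 0.54 (SD, n = 2) of cells with OA and 36.4% ± 1.5 (n = 2) in the control. EPCAM-positive cells, with an EPCAM UMI and neither collagen, were 88.4% ± 0.03 and 27.7% ± 6.6. The exact two-sided permutation p was 0.33 for each share, the smallest that 2 against 2 libraries allow. Summed intestinal markers were 14030 to 17660 CPM with OA and 1680 to 3138 in the control, and hepatocyte markers 23750 to 24380 and 9098 to 12670. In EPCAM-positive cells alone the intestinal markers were 14270 to 18410 CPM with OA and 2308 to 3937 in the control, with 6 of 9 called higher. Hepatocyte markers there were 24290 to 25350 CPM against 16700 to 18310, with 8 of 11 tested called higher and 1 lower. Cell-cycle markers were 100 to 114 CPM against 267.4 to 278.4, with 4 of 6 called lower. The part of these markers in the result was not tested.

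The OA comparison was also made within EPCAM-positive cells. This leaves out COL-positive cells but not shifts inside the class, such as those of the intestinal, hepatocyte and cell-cycle markers. Mesenchymal markers moved inside it too, with POSTN (-6.57), PDGFRA (-3.09), COL1A1 (-2.50) and COL6A3 (-2.26) called lower and LUM (2.74) higher. DCN and PDGFRB were not called. Cells with both EPCAM and a collagen, also left out, were 5.60% and 4.47% with OA against 26.7% and 32.0% in the control. The part of these differences in the result within EPCAM-positive cells was not tested. Of the 9 genes that could be tested there, 7 rose and 2 fell, with 35.9% of 17524 genes called in all (19.1% higher and 16.8% lower). PLIN2 stood at 954 and 864 CPM against 205 and 210 in these cells, a log2 fold change of 2.37 (edgeR SE 0.299, adjusted p 7.0e-05). DGAT2 stood at 203 and 157 CPM against 25.1 and 12.3, and CIDEC at 124 and 106 against 14.5 and 10.1, with log2 fold changes of 3.46 and 3.43. CIDEB (3.33), DGAT1 (1.70) and PLIN3 (0.93) rose as well. In each of these 6 genes the fold change stayed called under 8 alternatives. HILPDA, at 5.98 and 8.04 CPM against 16.2 and 19.2, fell by 1.10 on the log2 scale (edgeR SE 0.325, adjusted p 0.018). Of the hypoxia-inducible genes named above, ANKRD37 (-2.29) and BNIP3 (0.92) were called here too, and VEGFA (0.58, edgeR adjusted p 0.060) was not. PLIN5 counts were small, with 14 and 17 UMIs against 19 and 18, and the level fell by 1.51 on the log2 scale (edgeR SE 0.407, adjusted p 0.011). PNPLA2 rose by 0.79 (edgeR SE 0.269, adjusted p 0.034). Without OA control replicate 2, HILPDA (-1.06), PLIN5 (-1.24) and PNPLA2 (0.61) were not called. Without OA replicate 1 these were -0.91, -1.38 and 0.77, also uncalled. HILPDA was not called without OA control replicate 1 (-1.11), nor PNPLA2 without OA replicate 2 (0.82).

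**Figure D2:**
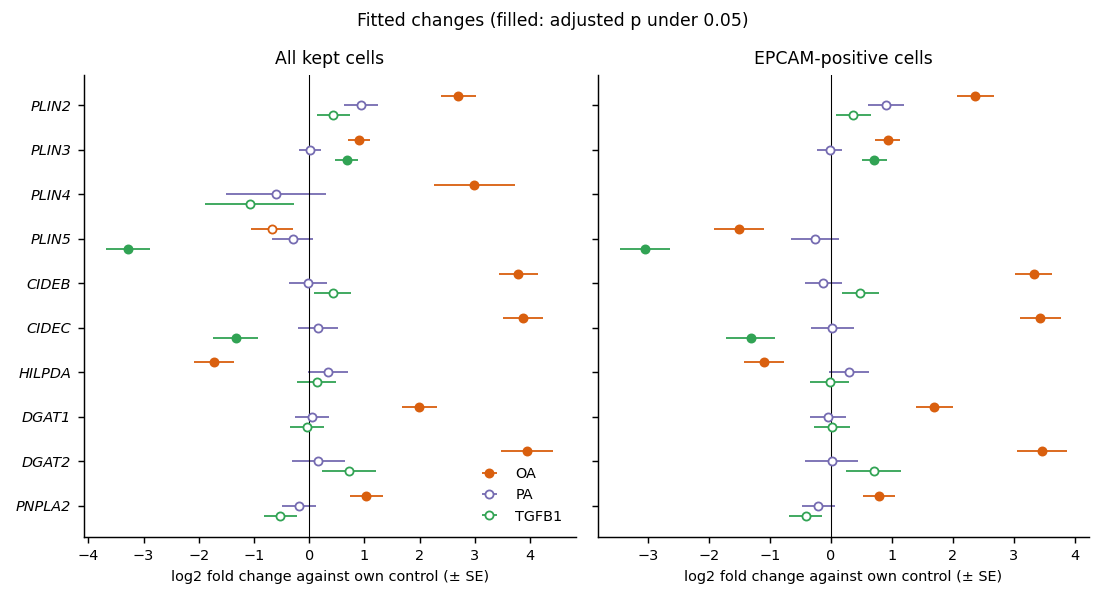
Fitted log2 fold change against each agent's own control (horizontal axis, ± SE) for each gene, in all kept cells and in EPCAM-positive cells; filled points have an adjusted p under 0.05 and untested genes are left out. With OA, DGAT2 lies at 3.95 and 3.46 in the 2 panels, while with PA no point is filled.

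In COL-positive cells the OA comparison could not be read the same way. OA replicate 2 held 38 such cells, under the minimum of 50, so a lone library of 60 cells was set against 2 controls and assumed to vary like the other groups. None of 7 testable genes was called by edgeR (2 at an unadjusted p under 0.05), with 3.76% of 14186 genes called (2.31% higher and 1.46% lower). The class also went against its label with OA. KRT18, a keratin of epithelial cells, stood at 2038 and 2357 CPM in OA COL-positive cells, against 417.4 to 462.7 in the control's and 2786 to 2831 in OA EPCAM-positive cells. With a gate on the ratio of marker UMIs, 138 and 98 OA cells counted as COL-positive and 3 members were called. The share of all genes called with that gate is not given, so the count is a description.

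PA, at the same dose, moved none of the 10 genes past the threshold. edgeR called 0.0465% of 19361 genes, 9 in all and each higher with PA, and DESeq2 likewise called none of the 10. PLIN2 was the 1 gene of the 10 at an unadjusted p under 0.05. It stood at 351 and 235 CPM with PA against 147 and 172, so both PA libraries were above both controls, but PA replicate 1 was well above replicate 2. The log2 fold change was 0.94 (95% interval 0.28 to 1.59, edgeR adjusted p 1). In EPCAM-positive cells, where 0.103% of genes were called, all higher, and 0 of 9 members (1 at an unadjusted p under 0.05), PLIN2 stood at 371 and 247 CPM against 158 and 181. In COL-positive cells it stood at 187 and 145 CPM against 82.6 and 113, and none of 7 genes was called (1 at an unadjusted p under 0.05; 0% of 14186 genes called). The difference of the PA effect between the classes passed for none of 8 genes tested by edgeR (0 at an unadjusted p under 0.05), where 0.291% of genes were called (0.0672% higher and 0.224% lower). CIDEB, CIDEC and DGAT2 had 0 to 3 UMIs per library in the COL-positive cells compared, so this says nothing of them.

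None of the other genes passed with PA. DGAT2 stood at 3.15 and 5.74 CPM with PA against 4.94 and 3.82. DGAT1 stood at 79 and 53 CPM against 70.1 and 62.1. CIDEB stood at 4.83 and 6.92 CPM against 6.98 and 5.90, and CIDEC at 3.87 and 6.82 against 5.82 and 4.62. For these 4 genes 1 PA library lay above and 1 below the mean of the control. The 95% intervals of the log2 fold change ran from -0.88 to 1.21 for DGAT2, from -0.62 to 0.71 for DGAT1, from -0.77 to 0.71 for CIDEB and from -0.62 to 0.95 for CIDEC. Intervals that span 0 do not show that the levels were equal. HILPDA stood at 29.3 and 16.8 CPM with PA against 15.6 and 21.9, and PLIN3 at 87.7 and 81.4 against 79.2 and 94.4. PNPLA2 stood at 28.7 and 29.2 CPM against 37.7 and 30.7, and PLIN5 at 1.18 and 0.962 against 1.45 and 1.32. For PNPLA2 and PLIN5 both PA libraries lay below both controls, and the 95% intervals of the log2 fold change were -0.84 to 0.47 and -1.10 to 0.50. PLIN4 had 0 and 9 UMIs with PA against 2 and 6, and the count of 0 allows up to 0.126 CPM in PA replicate 1. The controls of the 2 experiments also differed in make-up, with 8.60% ± 2.05 COL-positive cells (n = 2) in the PA control.

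The 2 agents were compared at 500 µM as a difference of effects, PA against its control minus OA against its control. Of the 10 genes, 7 were lower and 1 higher by this test, where 20.5% of 19361 genes were called (10.3% higher and 10.2% lower). The widest differences were for CIDEB (-3.82, SE 0.475, edgeR adjusted p 2.6e-04), DGAT2 (-3.78, SE 0.656, edgeR adjusted p 0.0017) and CIDEC (-3.71, SE 0.495, edgeR adjusted p 3.9e-04). DGAT1 differed by -1.94, PLIN2 by -1.76, PLIN4 by -3.59 and PLIN3 by -0.89. HILPDA differed the other way, by 2.07 (edgeR SE 0.508, adjusted p 0.012). Differences for PNPLA2 (-1.22, 95% interval -2.15 to -0.30, edgeR adjusted p 0.060) and PLIN5 (0.37, interval -0.77 to 1.51, edgeR adjusted p 0.66) did not pass. Between 5 and 7 genes were called when a library was left out, with 5 without PA control replicate 1, PA replicate 1, OA control replicate 2 or OA replicate 1. HILPDA was the further call lost without PA control replicate 1 (1.92), PA replicate 1 (1.63) or OA replicate 1 (1.93), and PLIN2 the one without OA control replicate 2 (-1.70). The PLIN3 call was lost whichever library was left out, and among those 8 refits PLIN4 kept its call in the 1 without PA replicate 2. CIDEB, CIDEC, DGAT1 and DGAT2 kept their calls in every alternative run. Within EPCAM-positive cells CIDEB (-3.45), DGAT2 (-3.45), CIDEC (-3.41), DGAT1 (-1.74), PLIN2 (-1.47) and PLIN3 (-0.95) were called. HILPDA (1.40) was not. The share of all genes called there or in the refits is not given, so this 6 of 9 and the refit counts are a description. COL-positive cells were 8.60% of the PA control and 36.4% of the OA control. The treatment protocol given for PA is not given for OA, and the headers name different software versions for the 2 experiments, so agent and experiment cannot be told apart.

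PLIN2 was also counted per cell at equal depth, as the expected share of cells with a PLIN2 UMI after thinning each cell to 2000 UMIs. In EPCAM-positive cells the share was 71.2% and 65.4% with OA against 29.6% and 28.2% in the control. With PA it was 42.0% and 31.7% against 25.2% and 25.9%. Treated libraries were above their controls for both agents. Unthinned, the OA shares were 88.6% and 85.9% against 64.8% and 76.6%. In COL-positive cells the thinned share was 16.4% and 20.1% for OA controls, compared with 15.7% and 18.0% in the PA control. COL-positive cells of the PA libraries had 26.5% and 21.0%, and OA replicate 1, with 54 such cells, had 27.6%. With TGFB1 the EPCAM-positive share was 29.1% and 27.2% against 18.5% and 26.6% in its control. Shallower cells left out numbered 294 and 342 for OA EPCAM-positive cells and 203 and 37 for the control's. The PA comparison left out more of them, 1361 and 389 with PA and 879 and 488 in the control. TGFB1 left out 115 and 184, and its control 3063 of 4690 in replicate 1, the library at 18.5%, and 209 in replicate 2. No cell type here is known to lack PLIN2, so a background share could not be set.

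**Figure D3:**
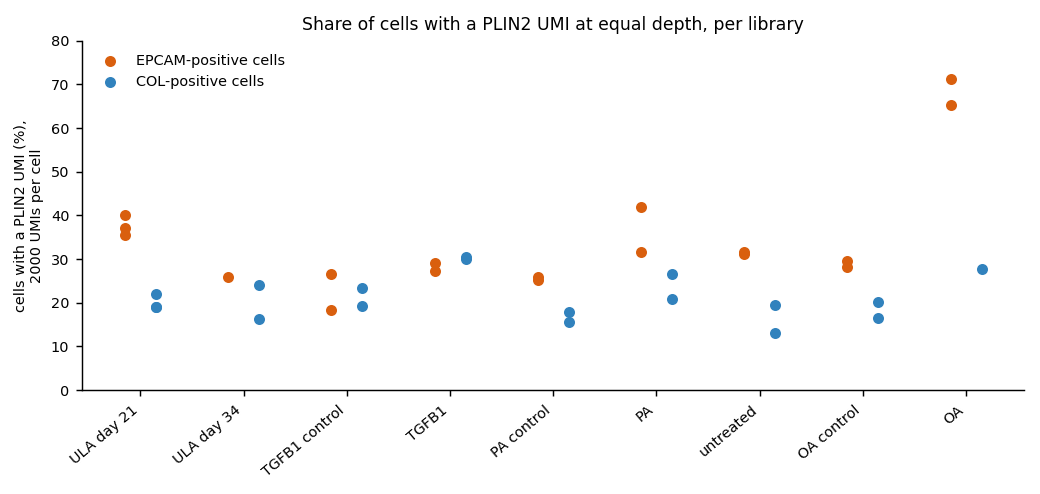
Percentage of cells with a PLIN2 UMI (vertical axis) after thinning to 2000 UMIs, by group; each point is a library and cell class. OA EPCAM-positive cells lie at 71.2% and 65.4%, above the points of every other group, and libraries with under 50 cells of a class are left out.

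With TGFB1 3 of the genes were called, PLIN3, PLIN5 and CIDEC. Of the 10, 1 rose and 2 fell, where edgeR called 22.2% of 19361 genes (10.9% higher and 11.3% lower). PLIN5 stood at 0.182 and 0.306 CPM with TGFB1 against 3.29 and 2.28, from 8 and 12 UMIs against 52 and 119. Its groups were far apart, and it fell by 3.28 on the log2 scale (edgeR SE 0.393, adjusted p 7.8e-05), called under each of 12 alternatives. CIDEC stood at 0.863 and 0.663 CPM against 1.64 and 2.53, and fell by 1.33 on the log2 scale (edgeR SE 0.410, adjusted p 0.034). PLIN3 stood at 104 and 95.5 CPM against 61.9 and 80, a log2 fold change of 0.68 (edgeR SE 0.202, adjusted p 0.030). PLIN2 stood at 194 and 177 CPM against 109 and 199, so its groups overlapped and it did not pass (log2 fold change 0.44, edgeR adjusted p 0.32). Without TGFB1 control replicate 2 it was called at 1.08, with control replicate 1 as the lone control. That library had a median of 1310 UMIs per kept cell, against 5635 in control replicate 2. PLIN3 and CIDEC depended on single libraries. Leaving out TGFB1 replicate 1 gave 0.61 for PLIN3 and -1.54 for CIDEC, and leaving out TGFB1 replicate 2 gave 0.75 and -1.14. Leaving out control replicate 1 gave 0.42 for PLIN3, and control replicate 2 gave -0.79 for CIDEC. None of these values was called.

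Within EPCAM-positive cells the same 3 genes were called with TGFB1 (25% of 17524 genes called, 12.3% higher and 12.7% lower). PLIN5 fell by 3.05 on the log2 scale, from 3.34 and 2.47 CPM to 0.221 and 0.370, and CIDEC fell by 1.31. PLIN3 rose by 0.71, and both PLIN3 and CIDEC again lost their calls without either TGFB1 library. PLIN3 was then 0.63 without TGFB1 replicate 1 and 0.81 without replicate 2, and CIDEC -1.57 and -1.08. PLIN3 also lost its call without control replicate 1 (0.46) and CIDEC without control replicate 2 (-0.94). COL1A1, a fibrillar collagen, stood at 347.5 and 404.7 CPM in TGFB1 EPCAM-positive cells against 17.2 to 33.5 in the control's, although the gate removed cells with the other collagens. In COL-positive cells none of 7 genes was called by edgeR (3 at an unadjusted p under 0.05; 0.0211% of genes called, 0.0141% higher and 0.00705% lower). The difference of the TGFB1 effect between classes passed for none of 9 genes (1 at an unadjusted p under 0.05; 6.14% of genes called, 4.09% higher and 2.04% lower). Without control replicate 2, 2 genes were called in COL-positive cells and 1 in that difference, which had 2 without control replicate 1. PLIN5, CIDEB, CIDEC and DGAT2 had 0 to 5 UMIs per library in COL-positive cells of TGFB1 and its control, so the difference is uninformative for them. Markers of several cell types moved with TGFB1 inside the EPCAM-positive class. Of 11 tested hepatocyte markers 1 rose and 7 fell, although their summed level was 5298 to 6208 CPM against 2957 to 4252, with AHSG at 0. Of 9 intestinal markers 5 fell, with sums of 177.2 to 190.9 CPM against 534.5 to 594.9. All 6 cell-cycle markers fell, from 268.5 to 398 CPM in sum to 16.3 to 22, and 2 of 5 tested squamous markers rose. Their part in the falls of PLIN5 and CIDEC was not tested.

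The cell class that carried each gene was read in the 8 control and untreated OS libraries. Of 8 genes tested between EPCAM-positive and COL-positive cells, 6 were higher and 1 lower in EPCAM-positive cells, where 57% of 14312 genes were called (30.1% higher and 27% lower). CIDEC and CIDEB had few UMIs in COL-positive cells, 0 to 15 per library for CIDEC and 0 to 12 for CIDEB. In TGFB1 control replicate 1, with 439 COL-positive cells, the 5 CIDEB UMIs came to 6.72 CPM, above the 3.56 CPM of its EPCAM-positive cells. In the untreated libraries CIDEC had 231 and 272 UMIs in EPCAM-positive cells (15.1 and 18.9 CPM) and 15 and 4 UMIs in COL-positive cells (0.950 and 0.818 CPM). With so few UMIs in COL-positive cells, CIDEC and CIDEB entered the test through the EPCAM-positive class, so their calls are a description and no fold is given. DGAT2 had 21 UMIs in each untreated library's COL-positive cells but 0 to 3 in the TGFB1 and PA controls, and is likewise described by its levels, 19.5 and 31.4 CPM in untreated EPCAM-positive cells. DGAT1 (1.51), PLIN2 (0.77) and PNPLA2 (0.73) were higher by less. HILPDA was lower in EPCAM-positive cells by a log2 difference of -1.49 (edgeR SE 0.149, adjusted p 7.3e-06), at 13.9 and 11.3 CPM against 55.4 and 37.0 in untreated organoids. PLIN3 did not pass (-0.08, edgeR adjusted p 0.47), with 80.3 and 70.3 CPM against 85.9 and 63.0. PLIN4 and PLIN5 had too few UMIs to be tested.

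**Figure D4:**
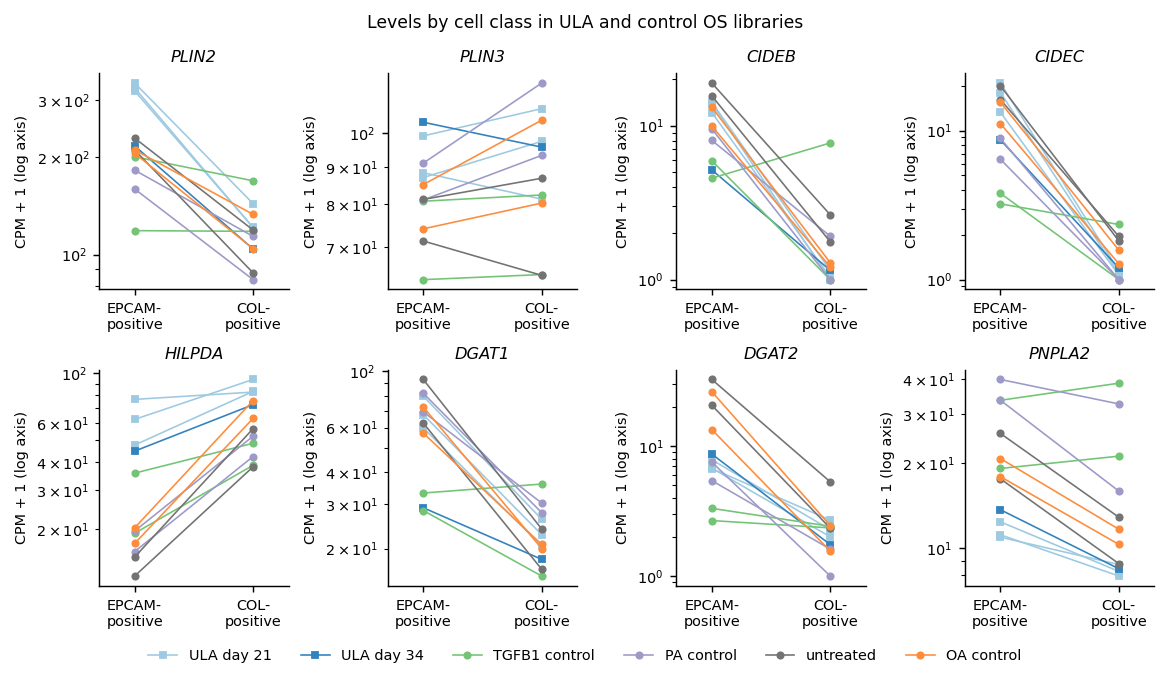
CPM + 1 on a log axis in EPCAM-positive and COL-positive cells, with 1 line per library of the ULA and control OS groups (libraries with under 50 cells in a class left out). CIDEC and DGAT1 slope down in nearly every library and HILPDA slopes up, at 13.9 and 11.3 CPM against 55.4 and 37.0 in untreated organoids.

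ULA organoids gave a like order for most genes. Of 9 genes tested, 7 were higher in EPCAM-positive cells (57.4% of 15415 genes called, 28.7% in each direction). The log2 difference was 2.65 for DGAT2, 1.95 for PLIN5, 1.60 for DGAT1, 1.48 for PLIN2 and 0.77 for PNPLA2. On day 21 PLIN2 stood at 338, 319 and 326 CPM in EPCAM-positive cells against 143, 120 and 120 in COL-positive cells. CIDEB had 303, 144 and 280 UMIs against 3, 1 and 0, and CIDEC 390, 158 and 430 against 2, 2 and 3. Both entered the test through the EPCAM-positive class, so they are given as counts and their calls are a description. HILPDA did not pass (-0.37, edgeR adjusted p 0.074). It was called as lower without ULA day 21 replicate 2 (-0.49) or without ULA day 34 replicate 2 (-0.27). PLIN3 (0.17) did not pass except without ULA day 34 replicate 2 (0.18). Cells positive for both EPCAM and a collagen were left out, and they were 29.8% to 59.7% of ULA cells and 1.93% to 32.0% of OS cells. The source of both signals in these cells was not tested.

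Between day 21 and day 34 in ULA culture, 3 of the 10 genes fell, where 17.5% of 18762 genes were called (9.6% higher and 7.91% lower). DGAT2 stood at 2.73, 2.11 and 2.93 CPM on day 21 and at 0.898 and 1.11 on day 34, and fell by 1.49 on the log2 scale (edgeR SE 0.296, adjusted p 0.018). DGAT1 stood at 35.7, 27.4 and 43.1 CPM and then at 14.3 and 18.8, and fell by 1.23 on the log2 scale (edgeR SE 0.243, adjusted p 0.018). CIDEB stood at 4.33, 2.94 and 5.04 CPM and then at 0.0793 and 0.667, and fell by 3.56 on the log2 scale (edgeR SE 0.764, adjusted p 0.023). Day 34 libraries were below day 21 libraries for each of these genes. CIDEC followed the same order (5.65, 3.22 and 7.15 CPM, then 0.0264 and 1.07) without passing (edgeR adjusted p 0.068). EPCAM-positive cells were 16.3% ± 4.0 (SD, n = 3) on day 21 and 3.27% ± 3.88 (n = 2) on day 34 (exact permutation p 0.2). Cells with both EPCAM and a collagen are outside that class. They were 42.5%, 29.8% and 36.8% of cells on day 21, then 49.6% and 59.7% on day 34. Summed hepatocyte markers were 2539 to 2941 CPM on day 21 and 100.1 to 884.5 on day 34, where 7 of 11 tested fell. Intestinal markers, of which 7 of 9 fell, were 293.8 to 461.6 CPM and then 5.11 to 59.7. Squamous markers, all 6 of them higher on day 34, were 23.2 to 41.5 CPM and then 440.7 to 1334. The part of these shifts in the result was not tested. Dissociation on day 34 added a wash and lengthened trypsin by 10 minutes.

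The day 34 replicates stood apart for HILPDA and PLIN2. HILPDA was at 315 CPM in replicate 1 and 55.3 in replicate 2, against 71.0, 73.2 and 63.1 on day 21. PLIN2 was at 291 and 105 CPM, against 175, 154 and 174. So 1 day 34 library lay above and 1 below every day 21 library for both genes. Neither was called with all libraries. Without day 34 replicate 1 PLIN2 was lower on day 34 (log2 fold change -0.81) and called, and without replicate 2 it was higher (0.67) and called. HILPDA was higher without replicate 2 (2.07) and called. The number of the 10 genes called changed as libraries were left out, and was 0 without day 21 replicate 1 or replicate 3. The share of all genes called in each refit is not given, so such counts are not read as being about these genes. CIDEC was called without either day 34 library, at -2.45 without replicate 1 and -7.70 without replicate 2, and PNPLA2 (-0.98) without replicate 2. CIDEB was not called without any 1 of the day 21 libraries (-3.76 without replicate 2).

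Between untreated organoids and the OA control none of the 10 genes passed the edgeR test (0 at an unadjusted p under 0.05, and none with DESeq2). In all, 0.573% of 19361 genes were called, 0.0826% higher and 0.491% lower in the control. PLIN2 stood at 170 and 186 CPM in untreated organoids and at 170 and 174 in the OA control. DGAT2 stood at 12.9 and 26.4 CPM and at 18.7 and 9.12. Over the 9 groups the mean PLIN2 level was 883.5 CPM ± 48.1 with OA (SD, n = 2) and 293.5 ± 82.1 with PA (n = 2). The remaining groups lay between 153.9 ± 63.7 in the TGFB1 control and 198.0 ± 131.9 in day 34 ULA organoids, and neighbours in that order differed by less than the larger SD of the pair.

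Among other genes of the same pathways, called shares are to be read against the 21.7% higher and 21.6% lower of all genes tested with OA. The lists were also chosen with earlier results of these data known, so their counts are a description. Of 16 genes of glycerolipid synthesis, 10 rose and none fell. GK, glycerol kinase, rose from 5.12 ± 0.32 to 134 ± 28 CPM (log2 fold change 5.06, edgeR adjusted p 3.5e-07). GPAT3, which acylates glycerol phosphate, rose by 4.99 (edgeR adjusted p 2.5e-05) and GPD1, which makes glycerol phosphate, by 4.19 (edgeR adjusted p 7.9e-05). Of 12 lipolysis genes, 6 rose and 1 fell. MGLL, the monoglyceride lipase, rose from 24.2 ± 5.1 to 236.5 ± 2.9 CPM (log2 fold change 3.61, edgeR adjusted p 2.1e-05). ABHD5, the activator of PNPLA2, rose by 2.12 (edgeR adjusted p 1.2e-05) and ABHD6 by 1.3 (edgeR adjusted p 0.0036). Of 17 tested targets of PPAR nuclear receptors, 14 rose. They included CREB3L3 (4.48), CPT1A (3.46), the carnitine palmitoyltransferase of mitochondrial fatty acid import, and FABP1 (3.15). Of 17 tested droplet coat and assembly genes, 5 rose, a share near that of all genes, among them HSD17B11 (2.16) and VPS13C (1.5). VPS13C was itself lower in the OA control than in untreated organoids (log2 fold change -1.13, edgeR adjusted p 0.026). The 1 that fell, METTL7A (-1.60), was not called in EPCAM-positive cells (0.23, edgeR adjusted p 0.65). Of 11 tested lipogenic genes, 2 rose (ME1, 2.77, and ELOVL6, 1.94) and 2 fell, among them FADS1 (-1.05), in both directions no more than the share of all genes.

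In EPCAM-positive cells the OA counts were close to those in whole libraries, with 8 of 15 glycerolipid synthesis genes, 6 of 12 lipolysis genes and 15 of 17 PPAR targets higher, where 19.1% of all genes were higher and 16.8% lower. Lower were 2 of the lipolysis genes, among them CES1 (-1.19), and none of the other 2 lists. The medians of the log2 fold change there were 1.01, 0.33 and 1.37, beside -0.07 over all genes tested. With PA none of these lists had a called gene. The medians with PA were 0.25 for glycerolipid synthesis, 0.02 for lipolysis and 0.16 for PPAR targets, beside 0.02 over all genes. With TGFB1, 2 of 16 glycerolipid synthesis genes fell, MOGAT3 (-2.36) and SOAT1 (-1.23), and none rose, a share of fallers near the 11.3% of all genes. Among 12 lipolysis genes 2 rose and 1 fell. CES1 fell by 2.44 on the log2 scale, and G0S2, an inhibitor of PNPLA2, rose by 1.90. On day 34 in ULA culture 5 of 15 tested glycerolipid synthesis genes fell, led by MOGAT1 (-4.00), where 7.91% of all genes fell. Of 12 lipolysis genes 1 rose, G0S2 (3.24), and 2 fell, MGLL (-1.92) and LIPA (-0.72). Between cell classes of the control OS libraries, 6 of 11 tested glycerolipid synthesis genes were higher and 1 lower in EPCAM-positive cells, as were 4 and 1 of 12 lipolysis genes. Of all genes 30.1% were higher and 27% lower there, so the lipolysis share of higher genes was near that of all genes. MOGAT3, 1 of the 6, could not be tested in COL-positive cells alone. It entered through the EPCAM-positive class, so the count of glycerolipid synthesis genes is a description.

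Over the 14 OS libraries, the genes most like each member were ranked by Pearson r of log2(CPM + 1) among 6082 genes, as a description. CIDEC was closest to CREB3L3 (r 0.983), KRT20 (0.981) and IL2RG (0.979). DGAT2 was closest to PSMD1 (0.989), AADAC (0.983) and PTGR1 (0.983), and CIDEB to PTGR1 (0.980), CEACAM1 (0.978) and CD68 (0.977). DGAT1 was closest to RHOF (0.975) and PLIN2 to FUOM (0.949). HILPDA, which went the other way, was closest to BCL7C (0.954), NOP56 (0.948) and CCT7 (0.942). PLIN3 was closest to CLDN7 (0.920) and PNPLA2 to MYH14 (0.963). The 2 OA libraries lay apart from the other 12 for CIDEB, CIDEC, DGAT1, DGAT2, PLIN2 and HILPDA, and libraries also share depth and cell make-up.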

How the data were processed

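The authors deposited raw UMI counts per gene and barcode, made with Cell Ranger 3.0.2 against GRCh38, per the submitters' processing notes; per the file headers, version 6.0.2 was used for OA, its control and untreated organoids. Deposited barcodes held at least 500 UMIs. The filter kept cells with 500 or more genes and up to 20% mitochondrial UMIs, and counts were summed per library over the 32703 identifiers shared by all matrices, which held 95.4% to 99.97% of UMIs. Libraries were the replicates. Sums were tested with edgeR 4.0.16 (TMM, filterByExpr, quasi-likelihood, Benjamini-Hochberg over all genes, threshold 0.05), with all OS groups, or all ULA groups, sharing the spread. Classes needed 50 cells per library; ULA day 34 replicate 1, with 23 EPCAM-positive cells, was left out of the ULA class test. The fits were tested on simulated data. DESeq2 1.42.0, other filters and gates, doublet removal (2.75% to 10.7% of cells per library) and leaving out libraries were alternatives; the gate on marker ratios, crossed numbers, left-out libraries for cell shares and the difference of PA and OA effects in EPCAM-positive cells were added after seeing the data. Named genes were all 10 members, up to 3 called genes with the largest change per pathway list, and the 3 genes most like each member with at least 5 CPM. Members and lists were chosen with earlier results of these data known. Gene positions are from GENCODE v44 (GRCh38). Intervals are 95% and cover the fitted spread. The limit for a count of 0 is 3 UMIs of the total and covers counting error only.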

Additional observations from a re-analysis of the deposited data

How the results depend on the processing

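With 2 or 3 libraries a group, small changes of single genes could not be resolved, and PLIN4 and PLIN5 rested on few UMIs. In whole libraries, 7 to 9 members were called with OA over the alternatives run, with 7 without OA control replicate 2, and none with PA. TGFB1 called 1 of 10 when fitted on its own libraries alone. Leaving out a library gave 1 to 3 members for TGFB1 in whole libraries and in EPCAM-positive cells, 0 to 2 in COL-positive cells and for the difference between classes, 5 to 7 for PA against OA and 0 to 7 for ULA day 34. The 2-UMI gate gave 1 member for the TGFB1 class difference and 1 for OA in COL-positive cells, where the ratio gate gave 3. The cause was not tested. Shares of all genes called in these alternatives are not given here, so the counts of members are a description.

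The replicate numbers do not pair the libraries (same-number correlations from -0.406 to 0.086). With a replicate block, 0 members were called for ULA day 34 (0 genes in all against 3285, PLIN2 at -0.018), 6 of 10 for PA against OA, and 5 genes in all with PA and for the OA control against untreated organoids. The crossed pairing called 3910 genes with TGFB1 and 77 for the OA control against untreated organoids, against 4293 and 111 with no block. Other counts over all genes moved by over 1.5 times as well. With PA they were 162 without the low-count filter, 17 without TMM, 16 on its own libraries and 52 with DESeq2, against 9. For the OA control against untreated organoids they were 523, 255, 0 and 709, against 111.

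Among the members, signs turned only for those that were not called with all libraries. With PA these were PLIN3 (-0.041) and DGAT1 (-0.0013) without TMM, PLIN4 (0.19) and CIDEB (0.038) with the stricter cell filter, and PLIN3 (-0.00060) on the libraries compared. With TGFB1 they were HILPDA (-0.031) without TMM and DGAT1 (0.042) with the stricter filter. As PA libraries were left out, values ran from -0.034 to 0.099 for PLIN3, -5.67 to 0.018 for PLIN4, -0.32 to 0.21 for CIDEB, -0.32 to 0.51 for CIDEC, -0.099 to 0.69 for HILPDA, -0.25 to 0.31 for DGAT1, -0.35 to 0.52 for DGAT2 and -0.37 to 0.040 for PNPLA2. For TGFB1 they ran from -0.0048 to 1.08 for PLIN2, -0.30 to 0.80 for HILPDA and -0.16 to 0.091 for DGAT1. For ULA they ran from -0.81 to 0.67 for PLIN2, -0.016 to 0.21 for PLIN3 and -0.45 to 2.07 for HILPDA.

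The OA difference in COL-positive cells was -32.3 points with the 2-UMI gate and -40.6 with the ratio gate, against -34.8. For EPCAM-positive cells the ratio gate gave 43.1 points, against 60.7. The ratio gate also gave 6.37 points for TGFB1 COL-positive cells, against 4.81. For OA control against untreated EPCAM-positive cells it gave 6.41, against -2.98. For ULA COL-positive cells, day 34 against day 21, it gave 22, against -3.22. In both of these last comparisons the sign turned. The OA difference in cells with a PLIN2 UMI was 32.1 points at 1000 UMIs and 16.5 unthinned, against 39.4, and that of TGFB1 was 23.2 unthinned, against 5.66 (control replicate 1 had a median of 1553 UMIs). DESeq2 gave no adjusted p for PLIN4 in PA against OA.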
